A study of Rattus norvegicus with 6 samples.

Results

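The glucocorticoid response genes were chosen by symbol as a readout of systemic stress. They were Nr3c1, which encodes the glucocorticoid receptor, the receptor's target genes Fkbp5, Tsc22d3, Sgk1, Zbtb16, Dusp1 and Klf9, and Hsd11b1, which encodes an enzyme that makes active hormone inside the cell. Of these 8 genes, 7 had a row under their symbol among the 32883 rows of the table, and all 7 passed the filter on low counts, which left 14352 genes. Nr3c1 had no row under this symbol or an older one and is not analysed here. Bulk RNA-seq was done on the vestibular epithelium of male Long-Evans rats. In the IDPN-4wk group, 3 rats drank water with 20 mM IDPN (3,3'-iminodipropionitrile, a nitrile toxic to hair cells, HCs) for 4 weeks. In the Control group, 3 rats drank water without it. Each library held the utricles and cristae of 1 rat, and with them the supporting cells, nerve endings and tissue beneath the sensory cells. Total counts ranged from 13358678 to 18561991 per library.

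Corticosterone, the main glucocorticoid of the rat, enters the cell and binds the glucocorticoid receptor, which is held ready by a chaperone complex. The receptor then moves to the nucleus and raises the transcription of genes that damp inflammation and alter metabolism, and it lowers that of many cytokines and chemokines. The hormone follows a daily rhythm and rises with stress, so transcripts of these genes vary with the hour and with handling in many tissues. In the inner ear, the receptor and the closely related mineralocorticoid receptor take part in the control of ion transport and are the target of steroid therapy.

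Levels are given as CPM, which corrects counts for the depth and TMM factor of each library, and differences as the log2-Fold change of IDPN-4wk over Control with its standard error (SE). A gene was called changed when its Padj, the Benjamini-Hochberg adjusted p of the quasi-likelihood test of edgeR over all genes tested, was under 0.05 and its fold change was over 1.5. Of the 7 genes, 1 was called, and it was lower in IDPN-4wk. Of all genes tested, 9.71% were called, 6.62% as lower and 3.09% as higher. No member was called higher, and at an unadjusted p under 0.05 the count of higher members was also 0. DESeq2 and limma-voom also called 1 member each. The log2-Fold change was above 0 for 5 members and below 0 for 2, with a median of 0.22, beside a median of 0.02 over all genes tested. The libraries of the groups did not overlap for 2 of the 7 members and for 37.8% of the genes tested.

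**Figure D1:**
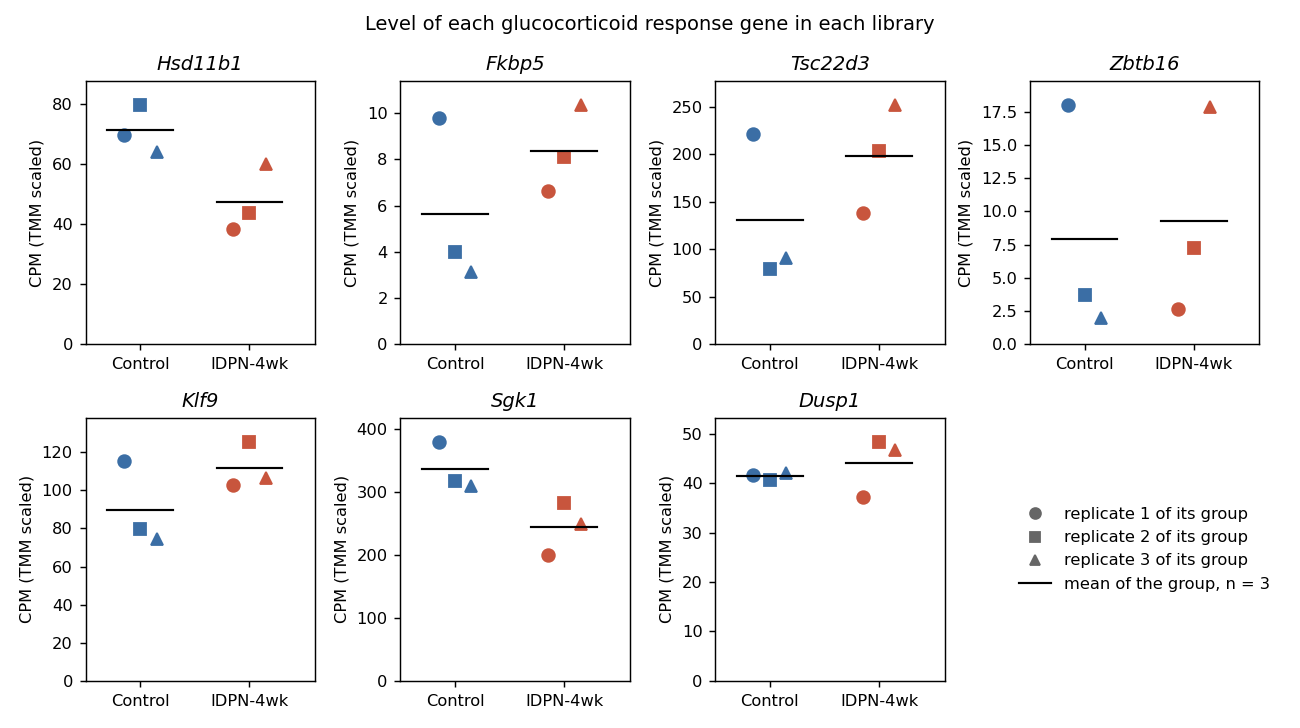
CPM (TMM scaled, linear axis from 0) of the 7 glucocorticoid response genes in the 3 Control (blue) and 3 IDPN-4wk (red) libraries. Each point is the library of 1 rat, its shape gives the replicate and the line is the mean of the group. Hsd11b1 and Sgk1 separate the groups, while Control replicate 1 lies with the IDPN-4wk libraries in Fkbp5, Tsc22d3 and Klf9.

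Hsd11b1 (ENSRNOG00000005861) was the member called. It encodes the hydroxysteroid dehydrogenase that regenerates active corticosterone from its inert keto form. Its level was 69.9, 79.8 and 64.3 CPM in the Control libraries and 38.5, 43.7 and 60.3 CPM in the IDPN-4wk libraries. All 3 treated rats lay below all 3 Control rats, although IDPN-4wk replicate 3 came close to the lowest Control. The mean fell from 71.3 ± 7.87 (SD, n = 3) to 47.5 ± 11.4 (SD, n = 3) CPM, a log2-Fold change of -0.59 (SE 0.15, 95% interval -0.92 to -0.26, Padj = 0.0197). This size is just past the threshold of 0.585 on the log2 scale, and the call was lost in several other analyses. The log2-Fold change was -0.55 with upper quartile scaling and -0.48 with library size alone. It came to -0.50 when Control replicate 2 was left out, to -0.47 when IDPN-4wk replicate 1 was and to -0.53 when IDPN-4wk replicate 2 was, with the highest Padj at 0.0764. Cell type markers moved too: 7 of 10 HC markers were called lower, beside 6.62% of all genes tested, and their summed level was 1736 to 1862 CPM in Control and 818 to 1095 CPM in IDPN-4wk. Of the 10 supporting cell markers 4 were called lower, beside the same 6.62%, with a sum of 11590 to 12810 CPM in Control and 6498 to 8104 CPM in IDPN-4wk. Otog, a gene of the extracellular membranes above the HCs, made up much of that sum, with means of 6262 and 3199 CPM. Of the list, 8 genes had a log2-Fold change below 0 and 2 above it, the transcription factor genes Sox9 (0.24, Padj = 0.0540) and Hes1 (0.36, Padj = 0.0783). The sum of 8 stroma markers was 891 to 1066 CPM in Control and 848 to 945 CPM in IDPN-4wk. Of these, 4 had a Padj under 0.05, beside 19.4% of all genes tested. The matrix genes Lum (log2-Fold change -1.42, Padj = 0.00633) and Col1a1 (0.74, Padj = 0.00835) were called lower and higher, beside 6.62% and 3.09%. The part of these cell types in the Hsd11b1 result was not tested, and in whole tissue fewer cells of a type and less RNA per cell cannot be told apart.

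Markers of other tissues were summed in the same way. Dark cell and melanocyte markers had 603 to 772 CPM in Control and 485 to 518 CPM in IDPN-4wk, which did not overlap. Pmel made up most of that sum, with means of 538 and 459 CPM (log2-Fold change -0.23, Padj = 0.138). Kcnq1, with means of 90.8 and 24.7 CPM, was the 1 gene of the 6 called by edgeR, beside 6.62% of all genes tested called lower. Of the 6, 5 were below 0 and Tyrp1 was above it (0.34, Padj = 0.593). Schwann cell markers had 8006 to 10240 and 5500 to 8203 CPM, endothelium markers 367 to 507 and 331 to 382 CPM, and red blood cell markers 264 to 314 and 306 to 625 CPM, with overlap. Skeletal muscle markers had 17.3 to 23.6 CPM in Control and 48.2 to 83.7 CPM in IDPN-4wk, with Myh4, a myosin heavy chain gene, called higher, with means of 7.93 and 58.1 CPM. The other tested muscle marker, Tnnc2, gave a log2-Fold change of -0.37 (Padj = 0.295), Acta1, Tnnt3 and Mylpf were near 0 and were removed by the filter, and Ckm was at 0 in all libraries. Immediate early genes, which respond to handling of tissue, had 454 to 485 and 482 to 566 CPM, with 2 of 10 tested called higher, beside 3.09% of all genes tested. In either direction, DESeq2 called 3 of them, limma-voom 2, and edgeR without Control replicate 1 called 1. The part of these in the values of the glucocorticoid response genes was not tested.

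By the root mean square difference of centred log2 CPM over the 6 libraries, the genes most like Hsd11b1 among 9978 genes of at least 10 CPM were LOC100302465, at 0.034, and Tspan15, a tetraspanin gene, at 0.0666. Their log2-Fold changes were -0.55 and -0.69.

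Other genes of hormone access were listed beside Hsd11b1. Nr3c2 encodes the mineralocorticoid receptor, which also binds corticosterone. It had 39.5, 33.3 and 36.4 CPM in Control and 24.9, 23.8 and 25.9 CPM in IDPN-4wk, so the groups did not overlap. Its log2-Fold change was -0.55 (SE 0.10, Padj = 0.00458), short of the fold threshold by edgeR with all libraries. Without Control replicate 2 it was -0.61 and without IDPN-4wk replicate 3 -0.59, both called. Srd5a1, a steroid reductase gene that starts the breakdown of glucocorticoids, had 50.1 ± 2.20 (SD, n = 3) CPM in Control and 35.0 ± 4.30 (SD, n = 3) CPM in IDPN-4wk (log2-Fold change -0.52, Padj = 0.00605), and it passed the fold threshold when IDPN-4wk replicate 2 was left out (-0.60). Akr1c14, a gene of a steroid dehydrogenase, was the third with a Padj under 0.05 and went the other way. It had 20.1, 15.4 and 13.02 CPM in Control and 22.2, 24.4 and 22.1 CPM in IDPN-4wk (log2-Fold change 0.50, Padj = 0.0475), without overlap. It was called without Control replicate 1 (0.69) and with library size alone (0.61), and its Padj was over 0.05 with any other library left out, at most 0.161 by edgeR. H6pd, which supplies the cofactor for the Hsd11b1 enzyme, gave 0.25 (Padj = 0.340), from 0.11 without IDPN-4wk replicate 2 to 0.41 without IDPN-4wk replicate 3, and Abcb1b, a drug and steroid efflux pump gene, gave 0.05 (Padj = 0.777). Hsd11b2, whose enzyme inactivates corticosterone, was near the counting floor. It had 0, 1 and 2 counts in Control and 7, 15 and 9 counts in IDPN-4wk, and the filter removed it. Of the 5 genes tested in this list, 3 had a Padj under 0.05 and none was called by edgeR with TMM scaling, DESeq2 or limma-voom with all libraries, with 3 at an unadjusted p under 0.05. The share of all genes tested with a Padj under 0.05 was 19.4%.

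Sgk1 (ENSRNOG00000011815) encodes a kinase that both corticosteroid receptors induce and that keeps epithelial sodium channels at the membrane. It had 379.8, 317.7 and 309.5 CPM in Control and 199.4, 282.8 and 249.0 CPM in IDPN-4wk. Again all treated rats lay below all Control rats. The means were 335.7 ± 38.4 (SD, n = 3) and 243.8 ± 42.0 (SD, n = 3) CPM, a log2-Fold change of -0.46 (SE 0.12, 95% interval -0.73 to -0.19, Padj = 0.0245), which passed the adjusted test and not the fold threshold. Hsd11b1 and Sgk1 were thus the 2 of 7 members with a Padj under 0.05, beside 19.4% of all genes tested, and both were lower in IDPN-4wk. Leaving out 1 library at a time gave values for Sgk1 from -0.58 to -0.34. Its Padj by edgeR was 0.0825 when Control replicate 1 was left out, 0.0771 when IDPN-4wk replicate 1 was and 0.0565 under library size scaling. The genes closest to it in profile were Tmod2, at a root mean square difference of 0.0835, and Paqr8, at 0.0863. These neighbours, like those of all members below, were looked up after the values had been seen.

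Fkbp5, Tsc22d3 and Zbtb16 are among the genes that respond most strongly to glucocorticoids in many tissues. Fkbp5 (ENSRNOG00000022523) encodes a co-chaperone that lowers the hormone affinity of the receptor and so closes a feedback loop. It had 9.82, 3.98 and 3.11 CPM in Control and 6.61, 8.10 and 10.4 CPM in IDPN-4wk. Control replicate 1 was higher than 2 of the 3 treated rats, and the remaining Controls were the lowest of all. For Fkbp5 this gave a log2-Fold change of 0.56 (SE 0.37, 95% interval -0.26 to 1.38, Padj = 0.324).

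Tsc22d3 (ENSRNOG00000056135) encodes GILZ, a leucine zipper protein that mediates part of the anti-inflammatory action of the hormone. It had 221.2, 79.5 and 91.1 CPM in Control and 138.8, 203.5 and 252.2 CPM in IDPN-4wk. The order of the libraries was nearly that of Fkbp5, with Control replicate 1 next to IDPN-4wk replicate 3 at the top. This came to a log2-Fold change of 0.60 (SE 0.33, 95% interval -0.13 to 1.34, Padj = 0.240).

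Zbtb16 (ENSRNOG00000029980) encodes the zinc finger transcription factor PLZF. It had 18.0, 3.70 and 1.98 CPM in Control and 2.66, 7.27 and 17.8 CPM in IDPN-4wk. Here the groups covered nearly the same range. Their log2-Fold change was 0.22 (SE 0.73, 95% interval -1.39 to 1.83, Padj = 0.867), an interval that takes in more than a 2-fold difference either way.

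Klf9 (ENSRNOG00000014215) encodes a Krüppel-like factor that glucocorticoids induce and that itself acts on clock and metabolic genes. It had 115.4, 79.6 and 74.4 CPM in Control and 102.6, 125.5 and 106.4 CPM in IDPN-4wk. Control replicate 1 again lay within the treated range and the remaining Controls below it. IDPN-4wk and Control differed by a log2-Fold change of 0.31 (SE 0.15, 95% interval -0.02 to 0.64, Padj = 0.170).

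Dusp1 (ENSRNOG00000003977) encodes a phosphatase that switches off stress-activated kinases. It had 41.7, 40.7 and 42.0 CPM in Control and 37.1, 48.4 and 46.6 CPM in IDPN-4wk. The Control rats were almost alike and the treated rats lay on either side of them. Between the groups, the log2-Fold change was 0.09 (SE 0.11, 95% interval -0.15 to 0.33, Padj = 0.608).

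**Figure D2:**
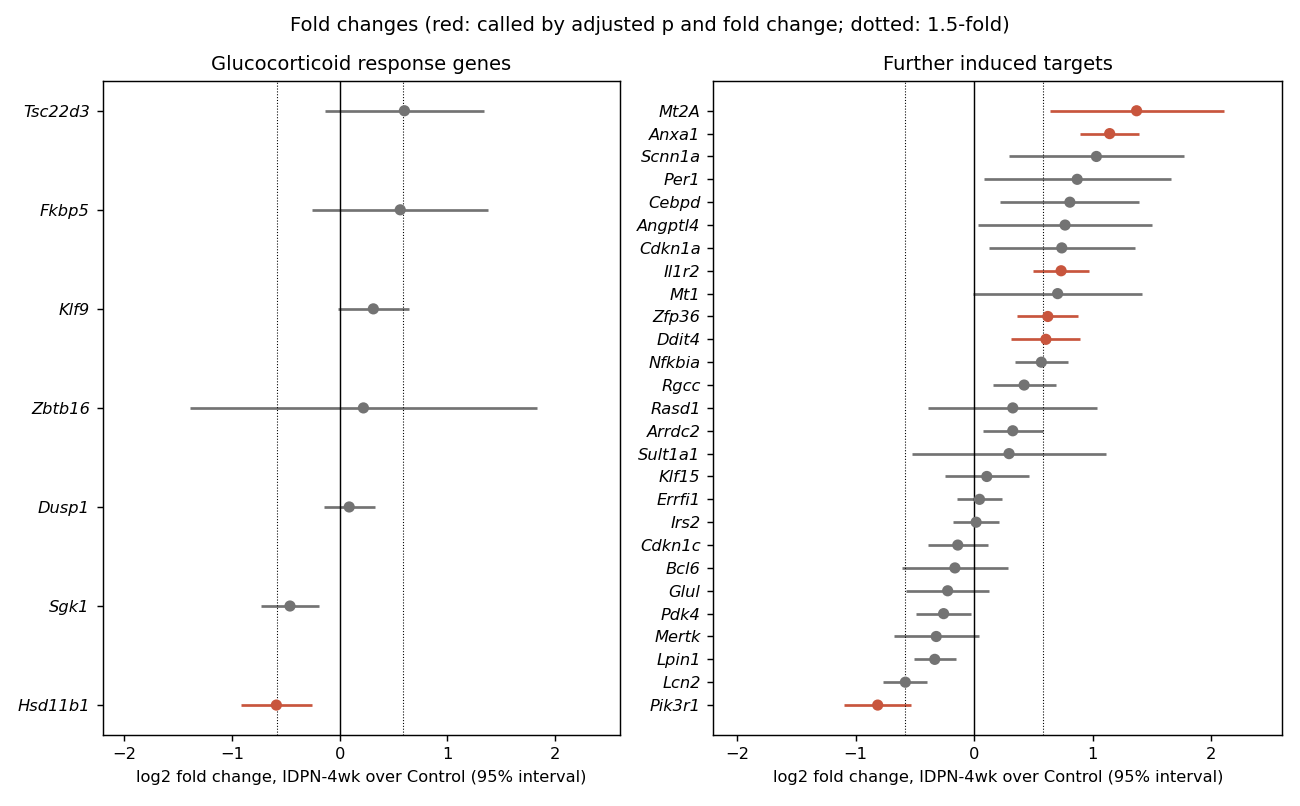
log2-Fold changes of IDPN-4wk over Control with 95% intervals for the 7 glucocorticoid response genes (left) and 27 further induced targets (right), with genes called changed in red and dotted lines at 1.5-fold. The interval of Zbtb16 runs from -1.39 to 1.83, while that of Dusp1 runs from -0.15 to 0.33.

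The spread among untreated rats was wide for some members and narrow for others. The highest Control library was 3.15 times the lowest for Fkbp5, 2.78 times for Tsc22d3 and 9.09 times for Zbtb16. For Klf9 the ratio was 1.55 and for Dusp1 1.03. On the log2 CPM scale (prior count 2), 13824 genes tested had a mean of at least 1 CPM, and their median ratio between the highest and the lowest Control was 1.19. A ratio over 2 was found in 3 of the 7 members and in 4.98% of those genes. A larger Control spread than that of Zbtb16 was found in 0.210% of these genes, than that of Fkbp5 in 1.34% and than that of Dusp1 in 96.6%. Among the IDPN-4wk libraries, 1 of the 7 members, Zbtb16, exceeded a ratio of 2, beside 5.96% of the genes.

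**Figure D3:**
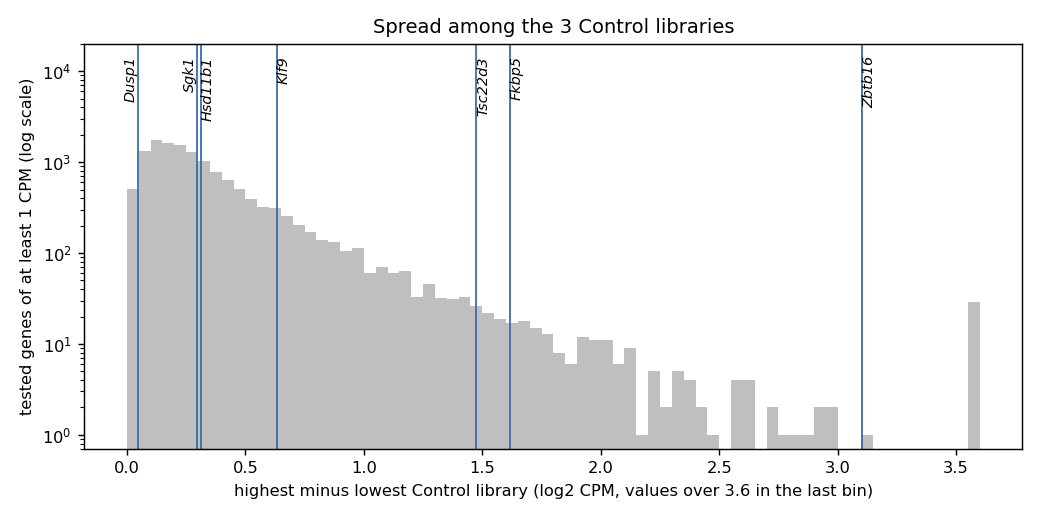
Number of tested genes of at least 1 CPM (log axis) by the highest minus the lowest of the 3 Control libraries in log2 CPM, with larger values gathered in the last bin. Lines mark the 7 members: Dusp1 lies at the left edge, and Tsc22d3, Fkbp5 and Zbtb16 lie in the right tail.

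Because Control replicate 1 was among the highest 2 of the 6 libraries for Fkbp5, Tsc22d3, Zbtb16 and Klf9, the fit was read without it. That library was singled out by the levels of these same genes, so higher values in IDPN-4wk without it follow from the choice and are given as a description of how far 1 rat decides them. Fkbp5 then reached 1.23 on the log2 scale (Padj = 0.0144 by edgeR) and Tsc22d3 1.22 (Padj = 0.00313 by edgeR), and both were called higher, which with Hsd11b1 made 3 members called. Without that library 2.91% of the 14555 genes tested were called higher, a share that nothing is read from here. Klf9 reached 0.53 (Padj = 0.00724 by edgeR), short of the fold threshold, and its lowest value was 0.19 without Control replicate 3. Zbtb16 reached 1.70 and was not called, and it changed sign when others were left out, to -0.12 for Control replicate 2, -0.23 for Control replicate 3 and -0.67 for IDPN-4wk replicate 3. With any other library left out, neither Fkbp5 nor Tsc22d3 was called, and their lowest values were 0.27 and 0.34. Control replicates 1 and 2 share a prefix in their animal codes, and Control replicate 3 has another, so the high and low Controls did not divide by this prefix. The IDPN-4wk rats share a further prefix, and whatever it marks cannot be told apart from the treatment.

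**Figure D4:**
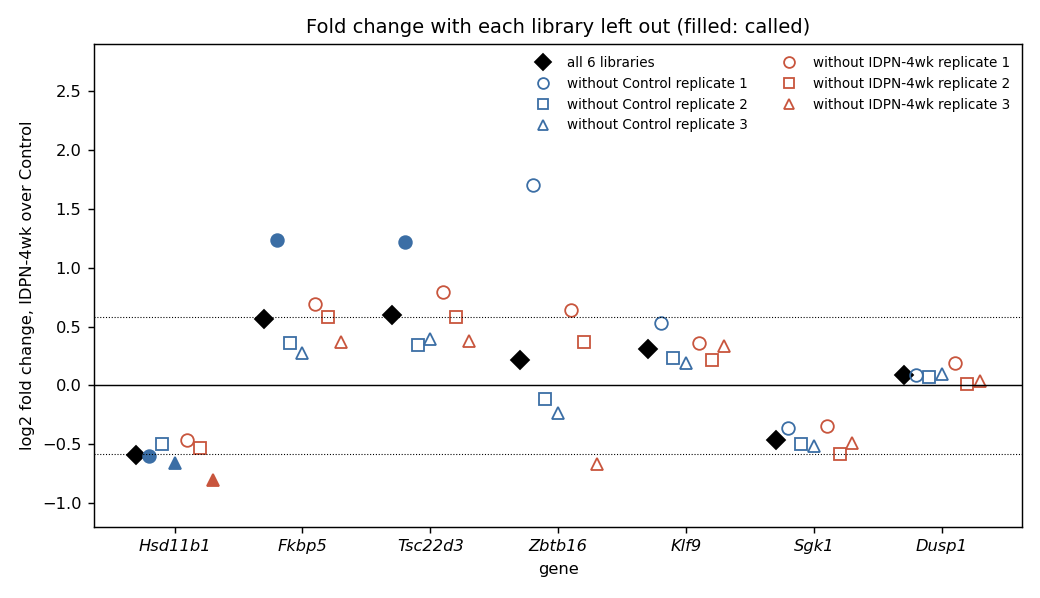
log2-Fold change of each member with all 6 libraries (black) and with each library left out in turn, filled where called, with dotted lines at 1.5-fold. Fkbp5 and Tsc22d3 rise to 1.23 and 1.22 without Control replicate 1, and Zbtb16 ranges from -0.67 to 1.70.

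The genes closest in profile were looked up for these members too. For Klf9 they were Bicc1, which encodes an RNA-binding protein, at a root mean square difference of 0.0688, and Rab20, a small GTPase gene, at 0.0722. For Fkbp5 they were Sult1a1, a sulfotransferase gene that glucocorticoids induce, at 0.156, and Tsc22d3 itself, at 0.177. For Tsc22d3 they were the clock genes Per2, at 0.140, and Dbp, at 0.193. Sult1a1 had 38.8, 13.1 and 11.8 CPM in Control and 20.6, 28.0 and 29.7 CPM in IDPN-4wk. Per2, a repressor within the circadian clock, had 111.2, 32.2 and 46.1 CPM in Control and 69.2, 108.9 and 137.3 CPM in IDPN-4wk. In both genes the same 2 Control rats, replicates 2 and 3, were the lowest of the 6, as they were in Fkbp5, Tsc22d3 and Klf9. Both were picked by likeness over these same 6 libraries, so the shared low Controls follow from the choice.

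The clock gene Arntl, which encodes the activator BMAL1, ran the opposite way. It had 31.0, 84.4 and 64.0 CPM in Control and 36.7, 24.0 and 22.2 CPM in IDPN-4wk, so that Control replicate 1 again lay within the treated range. Of 16 clock genes tested by edgeR, Ciart, a clock repressor gene, was called higher (log2-Fold change 1.32, Padj = 0.0393), and Arntl (-1.12, Padj = 0.0260) and its relative Npas2 (-1.26, Padj = 0.0415) were called lower. All 3 stand beside the 9.71% of all genes tested. DESeq2 called 0 of the 16, limma-voom called Ciart, Arntl and Dbp and not Npas2 (Padj = 0.103), and without Control replicate 1 edgeR called 8, beside 8.77% of all genes tested in that fit. Several of these clock genes share the profile by which that library was singled out, so nothing is read from the 8. Ciart was 2.16 and called without Control replicate 1. Its call was lost without any other single library, and its lowest value was 0.99, without Control replicate 2. Both the Arntl and the Npas2 call were lost when Control replicate 2 or 3 or IDPN-4wk replicate 2 or 3 was left out. The hour at which each rat was killed is not given in the sources used here, and the part of the time of day in the values of Fkbp5, Tsc22d3, Zbtb16 and Klf9 was not tested.

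**Figure D5:**
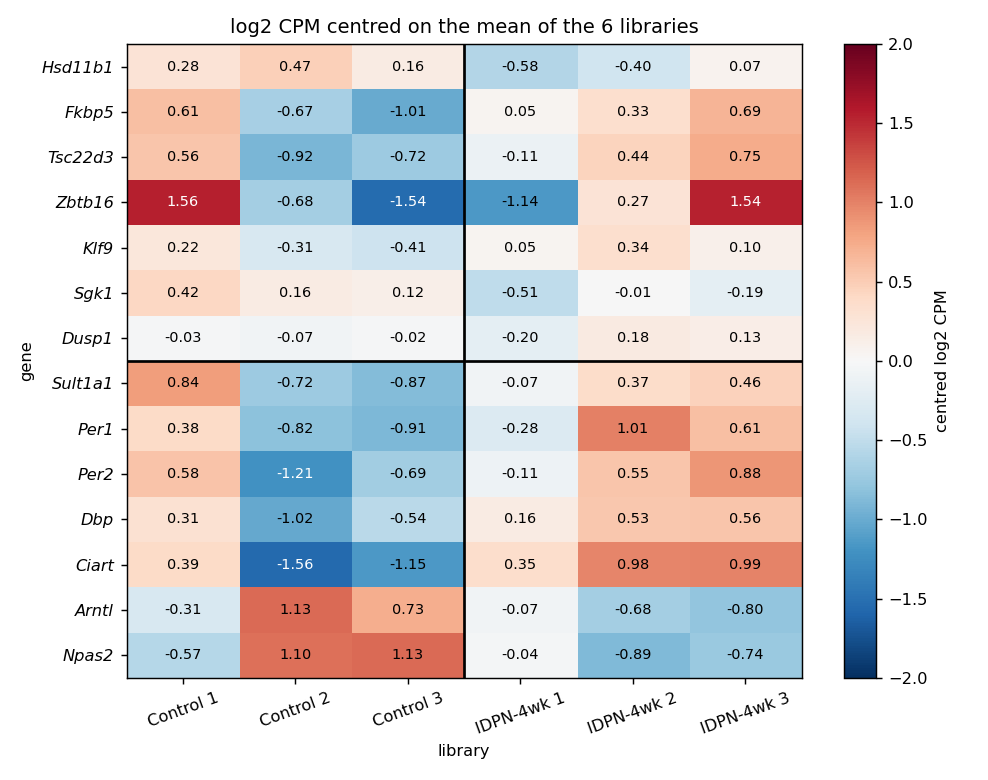
log2 CPM of the 7 members (above the line) and of 7 target and clock genes (below it), centred on the mean of the 6 libraries for each gene, with red above and blue below that mean. Control replicates 2 and 3 are blue and Control replicate 1 is red in Fkbp5, Tsc22d3, Klf9, Sult1a1, Per1, Per2, Dbp and Ciart, and the colours are reversed in Arntl and Npas2. The genes below the line were chosen after their values were seen. Of the clock genes not shown, Tef, Nr1d2, Per3, Cry1, Cry2 and Bhlhe40 had the first pattern and Clock the reversed one. Nr1d1, Hlf and Bhlhe41 had neither.

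Promoter sequence was read for the members in the RefSeq promoter table of build GRCr8, which holds windows from 250 bases before to 50 bases after a start. It gave 9 windows for 5 of the members, Fkbp5, Tsc22d3, Sgk1, Dusp1 and Klf9. The palindromic glucocorticoid response element, searched as GNACA, any 3 bases and TGTNC, was in 0 of the 9 windows and in 0.439% of all 33469 windows. The shorter site AGAACA, which a single receptor molecule can bind, searched on both strands, was in 0 of the 9 and in 20.7% of all windows. The receptor often acts from distant enhancers, which these windows do not cover. Windows of 3 members held TGACG, the core of the cAMP response element, on either strand, as did 21.2% of all windows. They are shown for Tsc22d3 and Klf9, both lowest in Control replicates 2 and 3, and for Dusp1, whose level was steady among the Control rats. These motifs were chosen after the values had been seen. Each stretch of 60 bases is written 5′ to 3′ along the strand of the gene, with the matches in capitals. Tsc22d3 lies at chrX:109010065-109010124 on the minus strand and starts 90 bases before the start, Klf9 at chr1:230126536-230126595 on the plus strand and starts 110 bases before it, and Dusp1 at chr10:17184713-17184772 on the plus strand and starts 140 bases before it.
Tsc22d3: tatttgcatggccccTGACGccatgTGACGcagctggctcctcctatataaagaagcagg
Klf9: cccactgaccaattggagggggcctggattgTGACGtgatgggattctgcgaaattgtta
Dusp1: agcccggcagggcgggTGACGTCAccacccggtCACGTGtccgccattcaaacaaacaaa
In Dusp1 the cores of both strands overlap in the palindrome TGACGTCA, found in 1.83% of all windows, and the second capital run is the E-box CACGTG, which clock factors can bind, found in 6.42% of all windows. A match is a description of the letters and does not show that a factor binds there.

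Further genes that glucocorticoids are known to induce were counted from a list of 28, of which 27 were tested. Of these, 5 were called higher and 1 lower, beside 3.09% and 6.62% of all genes tested, and 10 had a Padj under 0.05, beside 19.4%. The log2-Fold change was above 0 for 19 and below 0 for 8, with a median of 0.33, beside 0.02 over all genes tested. Anxa1, which encodes annexin A1, a mediator of anti-inflammatory action, had 1227, 1443 and 1485 CPM in Control and 2664, 3561 and 2950 CPM in IDPN-4wk, with a log2-Fold change of 1.14 (SE 0.11, Padj = 9.48e-05). All treated rats were above all Control rats, Control replicate 1 included, which here was the lowest of the 6.

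The metallothionein gene Mt2A had 6.33, 4.96 and 4.18 CPM in Control and 8.41, 21.4 and 9.98 CPM in IDPN-4wk (log2-Fold change 1.37, SE 0.33, Padj = 0.0158). The treated rats were higher, IDPN-4wk replicate 2 most of all. Metals also induce this gene, and its reads may be shared with close copies. The value was 0.83 without IDPN-4wk replicate 2, still called. The call was lost without Control replicate 2 (1.34, Padj = 0.0554 by edgeR) and without Control replicate 3 (1.24, Padj = 0.0644 by edgeR).

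Il1r2, a decoy receptor gene for interleukin 1, rose from 36.3 ± 1.61 to 60.4 ± 8.34 (SD, n = 3) CPM (log2-Fold change 0.73, Padj = 9.53e-04 by edgeR). Zfp36, whose product destabilises cytokine mRNAs, rose from 34.4 ± 3.75 to 52.9 ± 6.54 (SD, n = 3) CPM (0.62, Padj = 0.00418 by edgeR). Ddit4, an inhibitor of mTOR signalling, rose from 30.5 ± 5.50 to 46.4 ± 4.01 (SD, n = 3) CPM (0.61, Padj = 0.00949 by edgeR). Zfp36 and Ddit4 were close to the fold threshold: Zfp36 was not called without Control replicate 2 (0.54) or IDPN-4wk replicate 2 (0.54), and Ddit4 not without Control replicate 3 (0.47) or IDPN-4wk replicate 2 (0.53). Many stress and inflammatory signals besides glucocorticoids induce Il1r2, Zfp36 and Ddit4.

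Pik3r1, a regulatory subunit gene of phosphoinositide kinase, was the target called lower, with 124.4, 117.2 and 119.9 CPM in Control and 56.3, 85.1 and 63.8 CPM in IDPN-4wk (log2-Fold change -0.81, SE 0.13, Padj = 0.00147). All treated rats were well below the narrow Control range. Lcn2, the iron carrier lipocalin, gave -0.58 (Padj = 9.31e-04 by edgeR), just short of the threshold. It was called by DESeq2 (-0.59), and by edgeR without Control replicate 1 (-0.65), IDPN-4wk replicate 1 (-0.62) or IDPN-4wk replicate 2 (-0.60). Without Control replicate 1, 12 of the induced targets were called in either direction, beside 8.77% of all genes tested in that fit. That library was singled out by members that are themselves such targets, so nothing is read from this count. Per1, a clock gene with a well-known glucocorticoid response, had 35.6, 15.4 and 14.5 CPM in Control and 22.5, 55.3 and 41.6 CPM in IDPN-4wk (0.87, Padj = 0.115), the order of high and low Controls seen in Fkbp5. It was 1.42 and called without Control replicate 1 (Padj = 0.0116 by edgeR), and 0.55 without IDPN-4wk replicate 2.

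Of 12 genes that glucocorticoids repress, 5 were tested, since 6 fell to the filter on low counts and 1 had no row. Of the 5, 1 was called, beside 9.71% of all genes tested, and 2 had a Padj under 0.05, beside 19.4%. Cxcl10, a chemokine gene that interferons induce, was called higher, with 3.23, 3.21 and 3.26 CPM in Control and 8.70, 6.09 and 9.78 CPM in IDPN-4wk (log2-Fold change 1.33, SE 0.24, Padj = 0.00302). Icam1, an adhesion molecule gene, gave 0.56 (Padj = 0.00902), and Vcam1, another, gave -0.08 (Padj = 0.742). The fold threshold was passed for Icam1 without Control replicate 3 (0.60) or IDPN-4wk replicate 3 (0.67), with upper quartile scaling (0.60) and with library size alone (0.67). The summed level of 10 macrophage and leukocyte markers overlapped between the groups, at 110 to 152 CPM in Control and 94.3 to 182 CPM in IDPN-4wk. Of these, 5 had a log2-Fold change above 0 and 5 below it. Only C1qb of the 10, a complement gene of macrophages, was called by edgeR, as higher (0.71, Padj = 0.0271), beside 3.09% of all genes tested. The macrophage receptor genes Cd163 and Csf1r gave -1.07 (Padj = 0.101) and -0.49 (Padj = 0.202).

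The receptor's own machinery was measured without the receptor. Of 10 chaperones and co-chaperones, none was called by edgeR with TMM scaling, DESeq2 or limma-voom, 4 had an unadjusted p under 0.05 by edgeR and 3 a Padj under 0.05, beside 33.1% and 19.4% of all genes tested, and the median log2-Fold change was 0.17, beside 0.02. Dnajb1, a co-chaperone of HSP70, had the largest value, 0.49 (Padj = 0.00362), and was called with library size alone (0.60). It had 92.4, 77.0 and 90.5 CPM in Control and 123.1, 128.4 and 112.5 CPM in IDPN-4wk. Hsp90ab1, which holds the receptor in its binding state, and Hspa8, a constitutive HSP70, gave 0.04 (Padj = 0.788) and 0.16 (Padj = 0.167). Of 9 receptor coregulators tested, none was called by these 3 tools, 2 had an unadjusted p under 0.05 and 0 a Padj under 0.05, beside the same shares, with a median of 0.17. Those with the highest mean CPM, Smarca4 and Crebbp, a chromatin remodeller and an acetyltransferase gene, gave 0.18 (Padj = 0.0805) and 0.17 (Padj = 0.148).

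Of 14 tested paralogs of the members, none was called by edgeR with TMM scaling, DESeq2 or limma-voom, with 4 at an unadjusted p under 0.05 by edgeR and 1 at a Padj under 0.05, beside 33.1% and 19.4% of all genes tested. That gene was Tsc22d1, a relative of Tsc22d3, with 516.6, 462.7 and 454.8 CPM in Control and 350.9, 367.9 and 388.3 CPM in IDPN-4wk (log2-Fold change -0.37, Padj = 0.00696). It was lower in all treated rats, whereas Tsc22d3 overlapped between the groups. Fkbp4, the relative of Fkbp5 that favours receptor transport, gave 0.11 (Padj = 0.304).

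Across the 68 tested genes of all pathway lists, 6 were called higher, beside 3.09% of all genes tested, and 1 lower, beside 6.62%. These are 7 in all, beside 9.71%.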

How the data were processed

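RNA-seq libraries were made by the authors from low amounts of total RNA by oligo-dT priming and template switching, without keeping the strand. The submitters' processing notes name STAR 2.5.3a and RSEM 1.3.0, and the methods name the rat build Rnor6.0. The deposited values were RSEM expected counts per gene, whole numbers as deposited. RSEM shares reads among similar genes, so close copies are less certain. All 6 columns belonged to a library and 0 were left over.

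Genes with low counts were removed (filterByExpr, at least 10 counts in enough libraries and 15 in total), and the rest were scaled with TMM and compared with edgeR 4.0.16 (glmQLFit and glmQLFTest, two-sided) in R 4.3.3. DESeq2 1.42.0 and limma-voom (limma 3.58.1) were alternatives, with other scalings, filters and call rules and with each library left out. The procedure was tested on simulated data. A count of 3, the limit that a count of 0 allows, was 0.155 to 0.216 CPM, for counting error only. The labels number no replicates, and no batch was used in the fit. The numbers used here follow accession order and pair nothing. Each library is a separate rat.

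The members and lists were chosen with earlier results of these data known. The genes named were the 8 members, and of each pathway list the genes called and the 2 with the highest mean CPM. Others (Nr3c2, Hsd11b2, H6pd, Akr1c14, Dnajb1, Per1, Sult1a1 and the clock genes among them) were chosen after their values were seen. Profiles were compared by the root mean square difference of centred log2 CPM (prior count 2).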

Additional observations from a re-analysis of the deposited data

How the results depend on the processing

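The call of 1 member remained 1 with DESeq2, limma-voom, DESeq2 size factors and both other filters on low counts. It was 0 with upper quartile scaling, with library size alone and with glmTreat, which tests against the fold threshold, and 2 with Padj alone, and it ranged from 0 to 3 with each library left out. Hsd11b1 was -0.55, -0.48 and -0.59 on the log2 scale in the first 3 of these, and Sgk1 was -0.46 and called by Padj alone. With each library left out, Hsd11b1 ranged from -0.81 to -0.47, Fkbp5 from 0.27 to 1.23, Tsc22d3 from 0.34 to 1.22 and Zbtb16 from -0.67 to 1.70, changing sign. The called genes of the pathway lists, 7 in all, were 11 with upper quartile scaling, 15 with library size alone, 2 with glmTreat and 19 with Padj alone, and from 6 to 14 with each library left out. The calls over all genes tested, 1394, were 453 with glmTreat and 2778 with Padj alone.

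Library size alone moved the median log2-Fold change of all genes tested from 0.02 to 0.13 and the calls from 950 lower and 444 higher to 780 lower and 762 higher. Under it Vcam1 changed sign to 0.0278. Hspa8, Smarca4, Crebbp and Fkbp4 then had a Padj under 0.05 by edgeR, at 0.27, 0.29, 0.28 and 0.22, and were not called. With each library left out, Vcam1 ranged from -0.24 to 0.0717, Hsp90ab1 from -0.0177 to 0.0971 and Abcb1b from -0.0221 to 0.149. Dusp1 ranged from 0.0126 to 0.188, Hspa8 from 0.0929 to 0.187 and Fkbp4 from 0.0742 to 0.150. Where changes are lost or turned, the cause was not tested. No paired analysis was possible because the labels give no replicate numbers. Zbtb16 and Fkbp5, with as few as 28 and 44 counts in a library, were the members with the least depth.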
